A study of Arabidopsis thaliana with 8 samples.

Results

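Early genes consistent over all regimes are the Arabidopsis thaliana genes whose transcripts were more abundant in early than in late siliques whichever way the labelled target was prepared. They were chosen by the deposited log2 ratios themselves: an annotated probe with values on all 8 slides was a member when its mean log2 ratio amounted to 2-fold or more (a log2 ratio of 1 or higher) in the unamplified, IVT and 2IVT regimes and to 1.5-fold or more in the PCR regime. Of 11307 such probes, 94 met the rule, which is 0.831%. Each of the 94 probes stands for a different gene, 93 of them protein coding and 1, AT4G04545, a pseudogene.

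Each slide set RNA of early siliques, 2 to 5 days after pollination (DAP) and labelled with Cy5, against a 90%-late sample labelled with Cy3. The 90%-late sample held siliques of 6 to 10 DAP with 10% early material, so that a gene transcribed only in early siliques could reach at most 10-fold, a log2 ratio of 3.32. The 4 target preparation regimes, with 2 slides each, were unamplified RNA (30 µg), 1 round of in vitro transcription (IVT, 5 µg), 2 rounds of in vitro transcription (2IVT, 50 ng) and PCR (50 ng, 20 cycles). All slides had the same dye orientation and compared the same pair of RNA samples, so the spread between slides is technical, a dye effect cannot be told apart from early against late, and the hybridizations of a regime cannot be told apart from the regime. In each amplified regime 1 amplification of the 90%-late sample served both slides, each against its own amplification of the early sample, so SDs and p-values leave out the spread between amplifications of the late sample. Fewer cells of a type and less RNA per cell cannot be told apart in whole siliques either. Positive values are higher in early siliques, a direction that was inferred from the dyes.

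In the days after fertilization the ovary wall and the seed coat grow mainly by cell expansion while the endosperm divides as a syncytium. Expanding plant cells loosen and rebuild their walls with expansins, endoglucanases and pectin-modifying enzymes, and outer cell layers deposit cutin and wax. GDSL lipases, named after a sequence motif at the active site, form a large family of secreted esterases, some of which act on cutin. Late siliques are dominated by embryo maturation, in which storage proteins, oleosins and late embryogenesis abundant proteins accumulate.

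The members' values were used to choose them and are given as a description, with no test. The median of the 94 genes was 1.46 without amplification (range 1.01 to 2.54), 1.66 with IVT (1.02 to 2.81), 1.59 with 2IVT (1.03 to 2.84) and 0.836 with PCR (0.588 to 1.95). The median over all 11307 annotated probes was 0.0700, 0.0767, 0.0511 and 0.00351 in the same order. These probes stand for 11131 distinct loci and are called annotated genes below. The thresholds alone were passed by 4.19% of annotated genes without amplification, 8.31% with IVT, 5.95% with 2IVT and 6.07% with PCR.

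**Figure D1:**
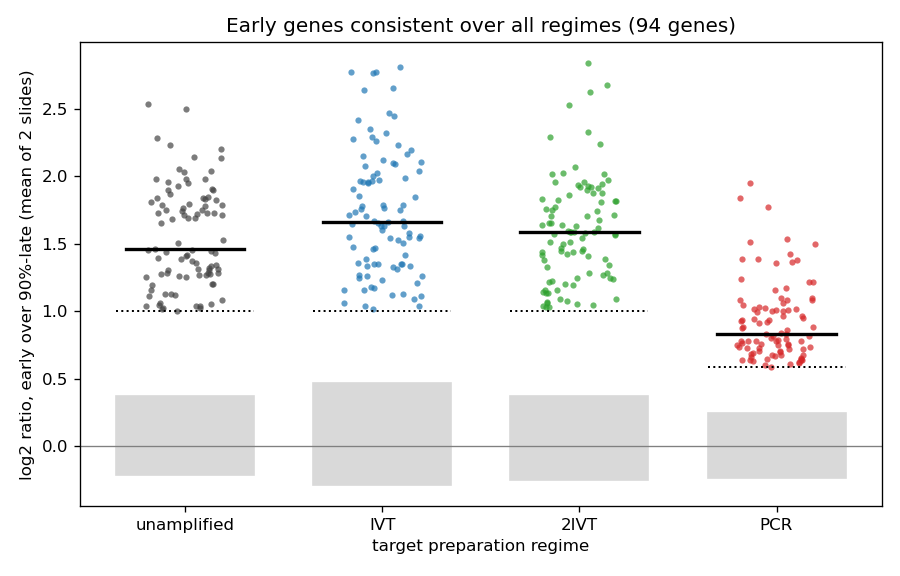
Log2 ratio (early over 90%-late, mean of 2 slides, y axis) of the 94 genes in each target preparation regime (x axis), 1 point per gene. Thick lines are medians, dotted lines the thresholds of the rule, and grey boxes span the middle 50% of all 11307 annotated genes; the members' median is 1.46, 1.66, 1.59 and 0.836 from left to right.

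The rule narrowed step by step. Of 474 annotated genes at 2-fold or more without amplification, 359 (75.7%) were also at 2-fold or more with IVT. After 2IVT 251 of those (69.9%) were still at 2-fold or more, and 94 of these (37.5%) reached 1.5-fold with PCR. Leaving out the unamplified, IVT or 2IVT threshold would have given 118, 104 or 130 genes, against 251 without the PCR threshold, so the PCR threshold removed the most genes. The same thresholds in the late direction gave 191 genes.

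The 157 genes that failed only with PCR had a median PCR log2 ratio of 0.223 (−1.19 to 0.576), and 123 of them were above 0. INO, the YABBY transcription factor needed for outer integument growth in Arabidopsis ovules, was one of them, with 2.01 without amplification, 2.43 with IVT, 1.81 with 2IVT and −0.03 with PCR. The other genes of this set with the highest means over the first 3 regimes were AT3G50560, AT3G23450, AT2G28140, JAL23 and AT1G66940.

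A role, protein family or domain was assigned by hand to 74 of the 94 genes, from textbook knowledge of each locus. Cell wall proteins formed 1 group of 19 genes and GDSL and related SGNH esterases 1 of 8. The grouping was not made for the other annotated genes, so these counts describe the members and cannot be read against a background. Proteolysis and ubiquitin-related proteins numbered 7, lipid and surface-layer enzymes 6, redox enzymes 5, enzymes of other metabolism 5, regulators of transcription or RNA 4, kinases and related receptors 4, calmodulin-binding proteins 3, cytoskeletal proteins 2, defence peptides 2 and other alpha/beta hydrolases 2. A further 7 genes, among them the DNA polymerase AT1G49980 and the leucine-rich repeat protein AT2G19780, fell in none of these groups, and 20 had no role given here.

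Among the cell wall genes, median log2 ratios were 1.47 without amplification, 1.96 with IVT, 1.65 with 2IVT and 0.938 with PCR. CSLA01, of the cellulose synthase-like A family that makes glucomannan, gave 2.06 and 2.51 on the unamplified slides, 2.71 and 2.83 with IVT, 1.94 and 2.11 with 2IVT, and 1.97 and 1.70 with PCR. It kept the second highest PCR mean of the 94 genes (1.84), and its PCR slides overlapped its 2IVT slides. AT1G66870, a protein with a carbohydrate-binding X8 domain, gave 2.17 and 2.24 without amplification, 2.96 and 2.58 with IVT, 2.85 and 2.82 with 2IVT, and 0.74 and 1.61 with PCR. Its 2IVT mean of 2.84 was the highest mean of any member in any regime, while its PCR slides differed by more than any other pair of its slides. EXLA2, an expansin-like protein, stood at 1.95 and 1.80, 2.06 and 2.15, 2.00 and 1.88, and 0.97 and 1.08 in the order unamplified, IVT, 2IVT and PCR, with both PCR slides below all its others.

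Pectin-related proteins made up 5 of the cell wall genes. AT3G10720, a pectin methylesterase, gave 1.79 and 2.48 without amplification, 2.72 and 2.58 with IVT, 2.70 and 2.54 with 2IVT, and 1.03 and 0.52 with PCR, where 1 slide missed the 1.5-fold threshold. The 3 pectin lyase-like proteins of the polygalacturonase family, AT1G60590, AT1G10640 and AT5G44830, had unamplified means of 1.98, 1.69 and 1.20 and PCR means of 0.77, 0.72 and 0.67. AT5G46950, of the family of invertase and pectin methylesterase inhibitors and known for a promoter active in early endosperm, gave 2.02 and 1.90 without amplification, 1.72 and 1.45 with IVT, 2.14 and 1.72 with 2IVT, and 0.91 and 0.97 with PCR. In the paper's endosperm, microdissected when embryos were at heart stage, this gene was not identified as endosperm-preferred. The paper points to another expression series, in which AT5G46950 was evident in siliques with globular embryos but not at heart stage. The early siliques used here span both stages. Apart from AT5G46950, at 0.94, these pectin-related genes thus had PCR means of 0.78 or less.

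The 2 members of glycosyl hydrolase family 9, endoglucanases that cut cellulose and related glucans, had higher PCR means than these. The rule used the PCR values and the relatives of these 2 genes were mixed with PCR, so no difference between families is read from this. GH9C2 gave 1.60 and 1.86 without amplification, 1.85 and 1.65 with IVT, 0.97 and 1.31 with 2IVT, and 1.82 and 1.72 with PCR. GH9B10 gave 0.97 and 1.11, 2.14 and 1.83, 1.08 and 1.68, and 1.64 and 1.36, again from unamplified to PCR. Both PCR slides of GH9B10 thus lay above both unamplified slides, whereas those of GH9C2 fell within the range of its unamplified slides. AT3G19620, a glycosyl hydrolase of the xylosidase family, had means of 1.47, 2.29, 1.58 and 0.99.

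Polysaccharide O-acetyltransferases of the TRICHOME BIREFRINGENCE-LIKE family were represented by TBL15 and TBL42. TBL15 had means of 1.42 ± 0.12 (SD, n = 2 slides), 1.66 ± 0.01, 1.75 ± 0.09 and 1.24 ± 0.13 from unamplified to PCR, and TBL42 1.46 ± 0.02, 1.12 ± 0.00, 1.44 ± 0.07 and 0.80 ± 0.07. DUF642 proteins, secreted proteins bound to the cell wall, included AT5G11420, AT4G32460 and AT5G14150. AT5G14150 gave 1.02 and 1.22 without amplification, 1.84 and 2.08 with IVT, 1.63 and 1.68 with 2IVT, and 1.39 and 1.38 with PCR, so its unamplified slides were its lowest. AT5G11420 went the other way, from 1.86 and 1.81 without amplification to 0.72 and 0.63 with PCR. The remaining cell wall members were AT1G58170, a dirigent-like protein, AT5G35740, with an X8 domain, and AT5G13140, of the Ole e 1 and extensin family.

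**Figure D2:**
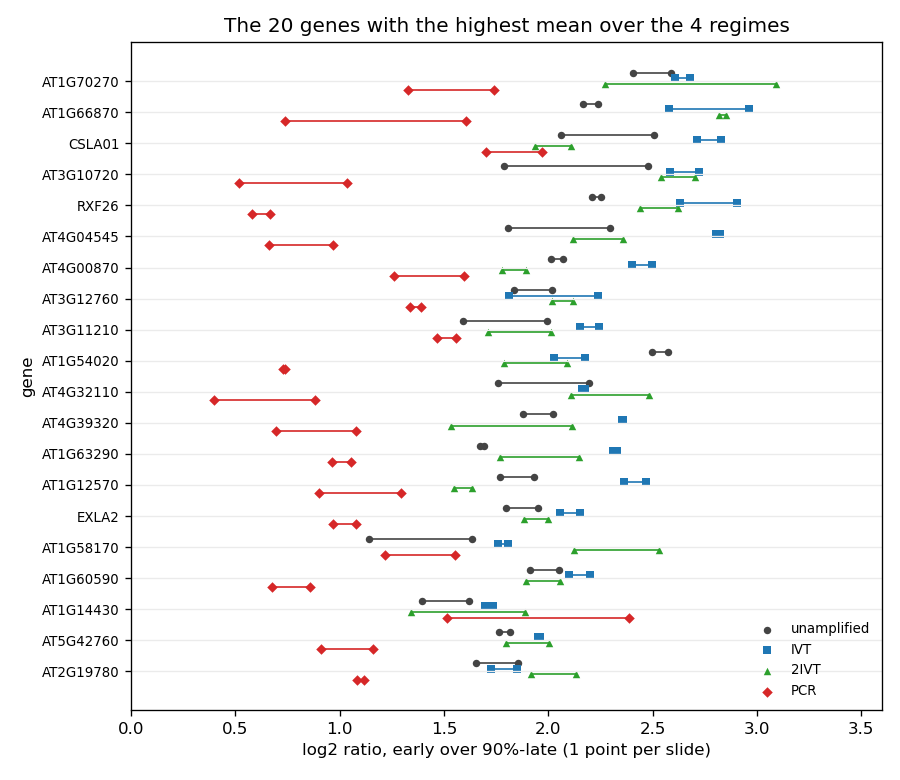
Log2 ratio (early over 90%-late, x axis) on each slide for the 20 genes with the highest mean over the 4 regimes (y axis), with 1 point per slide, a line joining the 2 slides of a regime, and colour and shape giving the regime. PCR slides lie to the left for most genes; AT1G14430, with PCR slides of 1.52 and 2.39, is an exception.

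GDSL lipases were represented by 7 genes and the related SGNH esterase by AT3G11210. Their median was 1.91 without amplification, 2.04 with IVT, 1.61 with 2IVT and 0.781 with PCR. AT1G54020 had the highest unamplified mean of the 94 genes, with slides of 2.58 and 2.50, and gave 2.03 and 2.17 with IVT, 1.79 and 2.09 with 2IVT, and 0.73 and 0.74 with PCR. RXF26 gave 2.25 and 2.21 without amplification, 2.63 and 2.90 with IVT, 2.62 and 2.44 with 2IVT, and 0.66 and 0.58 with PCR. Their PCR means were 28.9% and 27.9% of their unamplified log2 ratios, the lowest percentages among the members.

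The other GDSL lipases did not all follow this pattern. AT1G29660, AT5G45950, AT4G28780 and AT4G18970 had unamplified means of 2.03, 2.15, 1.78 and 1.73 and PCR means of 0.80, 0.76, 0.88 and 0.68. AT5G03610 gave 1.38 and 1.19 without amplification, 1.36 and 1.48 with IVT, 1.20 and 1.64 with 2IVT, and 1.65 and 1.13 with PCR, so its slides overlapped over all regimes. The SGNH esterase AT3G11210 also stayed high, with 2.00 and 1.59, 2.15 and 2.24, 2.02 and 1.71, and 1.56 and 1.47. Its PCR slides nonetheless lay below both unamplified slides.

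Among lipid and surface-layer enzymes was GLC, a BAHD acyltransferase known as GLAUCE and needed in Arabidopsis for endosperm development. It gave 1.37 and 1.69 without amplification, 2.29 and 2.23 with IVT, 1.67 and 1.97 with 2IVT, and 1.03 and 0.91 with PCR. AT1G31490, a second BAHD acyltransferase, had means of 1.46, 1.25, 1.21 and 0.92. AT1G02190, related to the wax alkane enzyme CER1, had means of 1.75, 1.54, 1.64 and 1.02. AT5G41900, an alpha/beta hydrolase of the BODYGUARD family that takes part in cuticle formation, AT5G01870, a lipid transfer protein, and AT1G45010, with a TLC domain, completed the group. These 6 genes had unamplified means of 1.29 to 1.83.

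Redox enzymes included the gene with the highest PCR mean. AT1G14430, a glyoxal oxidase-related protein, gave 1.62 and 1.40 without amplification, 1.73 and 1.70 with IVT, 1.89 and 1.34 with 2IVT, and 1.52 and 2.39 with PCR. One PCR slide therefore lay above all its other slides and the other within them. AT1G12570, an oxidoreductase of the glucose-methanol-choline family, had means of 1.85, 2.42, 1.59 and 1.10, and AT5G06730, a class III peroxidase of the kind that acts in cell walls, 1.32, 1.503, 1.60 and 0.97. AT4G23340, a 2-oxoglutarate oxygenase, and AT5G14700, a reductase, had unamplified means of 1.19 and 1.28.

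Regulators were few. AT4G00870, a bHLH transcription factor, gave 2.07 and 2.01 without amplification, 2.40 and 2.50 with IVT, 1.78 and 1.89 with 2IVT, and 1.26 and 1.60 with PCR. The second bHLH factor, AT3G61950, had means of 1.81, 1.64, 1.71 and 0.78. PTL (PETAL LOSS), a trihelix factor that limits growth between sepals in Arabidopsis flowers, lay near the thresholds with 1.05, 1.35, 1.04 and 0.86. AT3G51950, a zinc finger RNA-binding protein, had the most even values of the regulators on its member probe, at 1.27, 1.21, 1.25 and 1.16. Its second probe was not even, with 1.72 without amplification and 0.23 with PCR.

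Kinases had the lowest unamplified median of the groups, 1.18. The kinases AT2G42960, AT5G23170 and AT3G56370 and the kinase-related secreted protein AT5G48540 had unamplified means of 1.03, 1.71, 1.08 and 1.28. AT3G56370, a leucine-rich repeat receptor kinase, gave 1.45 and 0.98 with PCR against 1.16 and 1.005 without amplification, so the slides of these regimes overlapped. The calmodulin-binding IQ-domain proteins iqd33 and IQD19 had unamplified means of 1.79 and 1.30 and PCR means of 0.84 and 0.70. AT4G31000, a further calmodulin-binding protein, went from 1.90 to 0.75.

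Proteolysis and ubiquitin-related members were led by AT3G12760, a DCN1-like protein of the machinery that attaches the ubiquitin-like NEDD8 to cullins. It gave 2.02 and 1.83 without amplification, 1.81 and 2.24 with IVT, 2.12 and 2.02 with 2IVT, and 1.39 and 1.34 with PCR. The subtilases AT5G67090 and AT5G58820, serine proteases that are mostly secreted, had unamplified means of 1.43 and 1.12 and PCR means of 0.68 and 0.65. AT3G19390, a cysteine protease with a granulin repeat, AT1G66180, an aspartyl protease, and AT5G47610, a RING finger protein, had unamplified means of 1.34, 1.06 and 1.45. PUB25, a U-box ubiquitin ligase, had 1.04, 1.16, 1.22 and 0.69. PUB25 and AT3G19390 were the only members next to each other in RefSeq gene order.

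The smaller groups were THI2.1, a thionin that is active in flowers and siliques (1.84, 1.98, 1.81 and 0.82), the defensin-like AT5G54220, the formin AT3G07540 and the myosin heavy chain-related AT3G56480. Of the metabolic enzymes, ASPGB1, an asparaginase that releases ammonium from asparagine, had means of 1.84, 1.96, 1.05 and 0.70. AT5G44630, a sesquiterpene synthase, had 1.66, 1.39, 1.66 and 0.73. The ribulose-phosphate epimerase AT1G63290 and the methyltransferases AT5G42760 and AT4G33120 had unamplified means of 1.68, 1.79 and 1.31.

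The gene with the highest mean over the regimes had no role given here. AT1G70270 gave 2.40 and 2.59 without amplification, 2.68 and 2.61 with IVT, 3.09 and 2.27 with 2IVT, and 1.33 and 1.74 with PCR. The pseudogene AT4G04545 gave 1.81 and 2.30, 2.82 and 2.81, 2.36 and 2.12, and 0.66 and 0.97, and had the highest IVT mean. PCR slides were the lowest in both genes. The 20 genes without a role had a median unamplified log2 ratio of 1.37 (1.02 to 2.50).

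No regime ranked the 94 genes as another did. The highest mean of a gene came from IVT in 44 genes, 2IVT in 26, unamplified RNA in 22 and PCR in 2, and the lowest from PCR in 87, unamplified RNA in 5 and 2IVT in 2. The PCR threshold of the rule was lower than the others, which bears on these counts. Pearson's r across the 94 genes was 0.632 between unamplified and IVT, 0.535 between unamplified and 2IVT, 0.605 between IVT and 2IVT, and 0.190 between unamplified and PCR. These coefficients are a description across genes that were chosen on the same values and share slides and RNA samples, and the thresholds narrow the range in each regime. Between the 2 slides of a regime, r across the 94 genes was 0.746 without amplification, 0.936 with IVT, 0.644 with 2IVT and 0.504 with PCR. The SD between slides, pooled over the members, was 0.203, 0.127, 0.278 and 0.240.

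Log2 ratios with IVT had a median of 112% of the unamplified log2 ratio (64.1% to 207%), with 64 genes above and 30 below their unamplified value. After 2IVT the median was 104% (57.0% to 171%), with 54 above and 40 below. After PCR it was 58.2% (27.9% to 145%), with 6 above and 88 below. Over all 474 annotated genes at 2-fold or more without amplification, the medians were 102%, 89.5% and 34.1%, but the 474 include the members and were not required to pass the thresholds of the amplified regimes, so nothing is read from the difference. Both PCR slides lay below both unamplified slides in 77 of the 94 genes, beside 91.1% of the 474, and nothing is read from that count since the rule used both regimes.

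The 6 genes above their unamplified value with PCR were GH9B10 (145%), AT1G14430 (129%), AT5G14150 (124%), AT3G56370 (112%), AT5G03610 (108%) and GH9C2 (102%). At the other end stood RXF26, AT1G54020 and AT4G32110, the last with 1.76 and 2.20 without amplification and 0.40 and 0.88 with PCR. Of the 6 genes, 3 belong to the cell wall group and 1 is a GDSL lipase, and GDSL lipases also hold the lowest percentages. Both groups thus held genes with high and with low percentages.

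**Figure D3:**
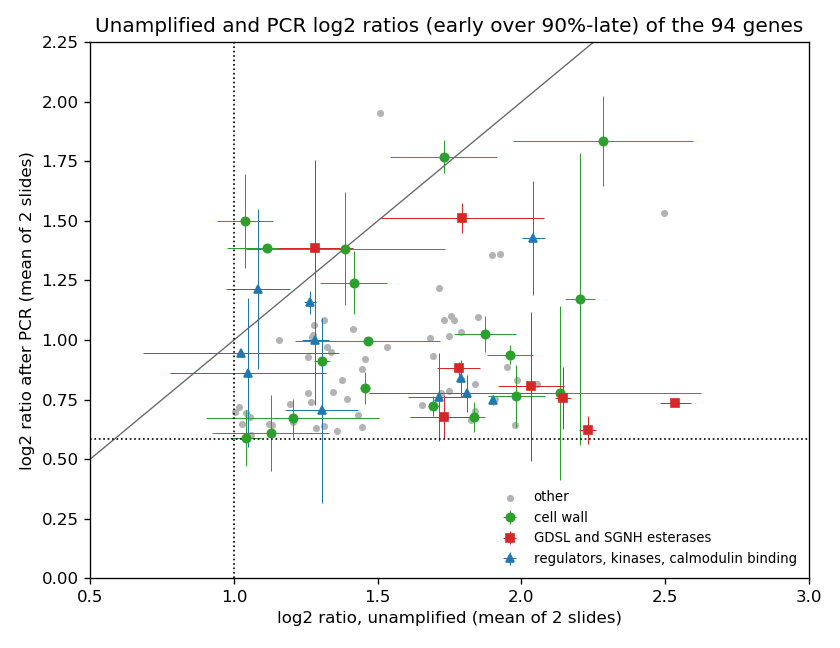
Mean log2 ratio with PCR (y axis) against the mean without amplification (x axis) for the 94 genes, early over 90%-late, with SD bars over 2 slides for the coloured groups and none drawn for the other genes in grey. Dotted lines are the thresholds and the solid line marks equal values; 6 genes lie above it and 88 below.

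Asking the threshold of each slide was stricter than asking it of the mean. Both slides reached the threshold in 82 genes without amplification, 92 with IVT, 80 with 2IVT and 73 with PCR, and all 8 slides in 58 genes. The lowest single value was 0.69 without amplification (AT3G10840), 0.90 with IVT (AT5G47610), 0.67 with 2IVT (AT3G56480) and 0.29 with PCR (AT2G26520), so no member was at or below 0 on any slide. Just inside the thresholds lay AT4G32460 (0.588 with PCR) and AT3G10840 (1.005 without amplification). Just outside lay PMEPCRF, a pectin methylesterase (0.999 without amplification), and AT4G02100 (0.994 without amplification). These distances are smaller than the SD between slides.

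A second probe, not used by the rule, was present for 2 members. For AT3G51950 it gave 1.72 ± 0.27 (SD, n = 2 slides) without amplification, 1.76 ± 0.14 with IVT, 1.35 ± 0.15 with 2IVT and 0.23 ± 0.59 with PCR. Tested with limma over all probes, its adjusted p was 2.01e-05, 9.43e-06, 9.58e-05 and 0.338, so the PCR value, at 1.16 on the member probe, was not told apart from 0 on the second probe. For AT1G80280, an alpha/beta hydrolase, the second probe gave 1.46 ± 0.21 without amplification (limma adjusted p = 3.61e-05), 1.64 ± 0.32 with 2IVT (adjusted p = 1.27e-05) and 0.52 ± 0.28 with PCR (adjusted p = 0.0271), and it had no IVT mean. The member probe of AT1G80280 had 1.72, 1.41 and 0.78 in these regimes.

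How far the families of the members moved with them was looked at over relatives that are not members. The mean of the 2 slides of each regime was tested against 0 with limma on the deposited log2 ratios of all probes, and a probe was called at a Benjamini-Hochberg adjusted p below 0.05. Of the probes tested, limma placed 26.0% higher and 17.6% lower in early siliques without amplification, 32.0% and 22.7% with IVT, 26.2% and 20.8% with 2IVT, and 16.4% and 15.0% with PCR. These p-values measure only the spread between slides. A relative cannot be a member, which keeps its values from being high in all 4 regimes, and the shares below are a description. Calls in all 4 regimes in 1 direction were made for 5.67% of the annotated genes on the early side and for 5.54% on the late side.

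GDSL lipases had 61 probes on all 8 slides for 60 genes, of which 7 (11.5%) were members, beside 0.831% of all annotated genes. The families were listed with earlier results of these data known, so no enrichment is read from such shares. Of the 54 other GDSL probes, 14 were called higher and 17 lower without amplification, 16 and 21 with IVT, 18 and 18 with 2IVT, and 8 and 14 with PCR. Both probes of AT1G54790 were among them. With IVT these were called in opposite directions, at 0.66 ± 0.28 and −0.44 ± 0.02 (limma adjusted p = 0.000812 and 0.00968). Early calls in all 4 regimes numbered 3 and late calls 7, beside the 5.67% and 5.54% of annotated genes. AT2G04570 came nearest to the members, with 1.64 ± 0.40 without amplification and 0.53 ± 0.05 with PCR (limma adjusted p = 3.36e-06 and 0.0124). AT1G71250, with the lowest mean over the regimes, had −3.91 ± 0.16 without amplification, −3.96 ± 0.25 with IVT, −2.40 ± 0.24 with 2IVT and −0.59 ± 0.18 with PCR (limma adjusted p from 2.31e-09 to 0.00775). The GDSL family thus held genes at both ends.

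Family 9 glycosyl hydrolases were mixed too: of 14 relatives, 4 were called higher and 3 lower in all 4 regimes. GH9B13, the nearest, had 1.83 ± 0.23 without amplification, 1.86 ± 0.15 with IVT, 0.63 ± 0.01 with 2IVT and 1.30 ± 0.06 with PCR (limma adjusted p from 2.19e-07 to 0.00101). GH9B9, which neighbours GH9B10 in gene order, had 1.61 ± 0.20 without amplification but 0.14 ± 0.20 with PCR (limma adjusted p = 6.19e-06 and 0.487). GH9B15 lay far on the late side, at −4.92 ± 0.65 without amplification, −6.58 ± 0.18 with IVT, −3.77 ± 0.18 with 2IVT and −2.11 ± 1.52 with PCR (limma adjusted p from 1.13e-07 to 0.00211). IQ-domain proteins were also mixed: of 13 relatives, 3 were called higher and 7 lower without amplification, with IQD23 at 1.13 ± 0.01 and iqd15 at −1.07 ± 0.31 (limma adjusted p = 1.29e-05 and 6.85e-05).

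In expansins, subtilases and TBL proteins more relatives were called higher than lower without amplification, which did not hold for TBL proteins with PCR. Without amplification, more were also called higher than lower in glycosyl hydrolase 9 (5 and 3), cellulose synthase-like (3 and 1) and DUF642 relatives (2 and 0). Of all annotated genes, 26.4% were called higher and 18.2% lower without amplification. With each slide centred on its median, the counts over all probes were nearly even, 5170 higher and 4924 lower. The calls of relatives given here are without this centring. Differences between families were not tested. Of 15 expansin relatives, 9 were called higher and 3 lower without amplification, and 4 higher and 0 lower in all 4 regimes. EXPA25 had 1.86 ± 0.10 without amplification and 0.49 ± 0.05 with PCR, and EXPA21 1.57 ± 0.14 and 1.26 ± 0.09 (limma adjusted p from 2.00e-07 to 0.00596). EXPA9 was lower, at −1.31 ± 0.01 without amplification (limma adjusted p = 6.43e-06). Of 33 subtilase relatives, 12 were called higher and 3 lower without amplification, 10 and 6 with 2IVT, and 4 and 0 in all 4 regimes. AT4G21640 missed the rule only with its 2IVT mean of 0.99 ± 0.28, and AT5G58840, in the same stretch of loci as the member AT5G58820, had 1.54 ± 0.43 without amplification and 0.53 ± 0.35 with PCR (limma adjusted p = 1.88e-05 and 0.0265). Of 16 TBL relatives, 9 were called higher and 1 lower without amplification, but 3 and 3 with PCR.

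TBL26 was at 1.68 ± 0.16 without amplification, 1.70 ± 0.06 with IVT and 1.34 ± 0.07 with 2IVT (limma adjusted p from 2.75e-07 to 2.59e-06), and at −0.27 ± 0.10 with PCR, which did not pass (adjusted p = 0.0864). In the smaller families, 3 of 7 DUF642 genes were members, beside the 0.831% of all annotated genes. AT2G41810 among the other 4 had 0.39 ± 0.08 without amplification, 1.49 ± 0.19 with IVT, 2.01 ± 0.08 with 2IVT and 0.16 ± 0.08 with PCR (limma adjusted p = 0.0146, 9.25e-07, 1.72e-07 and 0.299). CSLA03, of the same subfamily as CSLA01, had 0.98 ± 0.39 without amplification and 0.94 ± 0.05 with PCR (limma adjusted p = 0.000276 and 0.000892). Of 6 cellulose synthase-like relatives, 2 were called higher and 0 lower in all 4 regimes, and of 7 U-box relatives 1 was called higher and 1 lower without amplification.

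**Figure D4:**
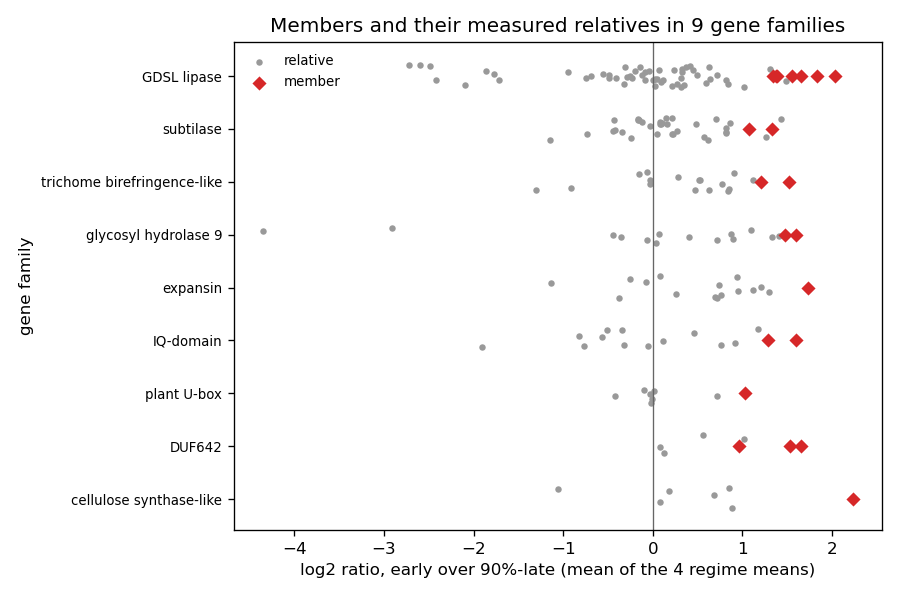
Log2 ratio (early over 90%-late, mean of the 4 regime means, x axis) for members (red diamonds) and measured relatives (grey points, spread vertically for legibility) in 9 gene families (y axis). Relatives of the GDSL and glycosyl hydrolase 9 families extend far to the late side, down to GH9B15 at −4.34.

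By RefSeq annotation, 30.9% of the members lay on chromosome 1, 7.45% on chromosome 2, 17.0% on chromosome 3, 17.0% on chromosome 4 and 27.7% on chromosome 5. The shares of the annotated genes matched to RefSeq were 24.4%, 16.0%, 21.1%, 15.6% and 22.8% in the same order. Of 63 measured genes next to a member in RefSeq gene order and not members themselves, 49.2% were called higher and 9.52% lower in early siliques without amplification, against 26.0% and 17.6% of all probes. After IVT 47.6% were called higher and 15.9% lower, against 32.0% and 22.7% of all probes. With 2IVT the shares were 39.7% and 11.1%, against 26.2% and 20.8%. With PCR they were 17.5% and 14.3%, near the 16.4% and 15.0% of all probes. Some neighbours belong to the family of the member beside them. AT1G29670, a GDSL lipase next to AT1G29660, had 0.98 without amplification, 1.78 with IVT, 0.53 with 2IVT and −1.33 with PCR (limma adjusted p = 0.00172, 1.61e-05, 0.0422 and 0.000604), and was chosen after its values were seen.

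Markers of silique and seed tissues were checked where they were measured, here meaning an annotated probe with values on all 8 slides. Other listed genes may have probes without a gene symbol. The paper reported array values for some of them in its endosperm hybridizations, among them FWA, MEA and TT8. All 3 measured seed maturation genes of 14 listed were called lower in early siliques in all 4 regimes, with unamplified log2 ratios of −8.98 to −5.18. Of 3 measured seed coat flavonoid genes of 14 listed, 3 were called higher without amplification, 2 with IVT, 1 with 2IVT and 1 with PCR. The 2 measured endosperm genes of 10 listed, PHE1 and AGL62, were called higher with IVT and 2IVT only. Valve margin and green tissue lists had 1 measured gene each, of 4 and 8 listed. The valve margin gene ALC was called higher without amplification (0.436), with 2IVT (0.335) and with PCR (0.919), but not with IVT (0.176). The green tissue gene LHB1B2 was called higher without amplification and with IVT only. AT5G46950 was not on the endosperm list. None of the measured markers was a member, and a listed gene without an annotated probe could not be one. The part of each tissue in the members' values was not tested.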

How the data were processed

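The authors normalized GenePix intensities with elements of SNOMAD in S-PLUS (global mean, local mean over the array surface, local mean over intensity) and deposited 1 log2 ratio per probe and slide; the scale and direction were inferred. The sources used here do not state whether low spots were interpolated or saturated spots replaced in these values. Slides held 22733 to 24403 values; their number, 2 per regime, limits the precision. No further normalization was applied. Of 26912 probes, 14539 had 1 gene symbol in the platform annotation, 0 had several and 12373 had none; 14485 were matched to RefSeq. Means were taken over slides, and regime means were tested against 0 with limma 3.58.1 (R 4.3.3) in 1 fit over 8 slides, with Benjamini-Hochberg adjustment, after a test on simulated data. Tables were made with Python 3.11.15 and pandas 2.3.3.

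The members and lists were chosen with earlier results of these data known. Because the annotation held symbols only, families were listed by symbol or by locus, and roles were assigned by hand. Named were the 10 members with the highest mean, the highest of each regime, the 3 smallest and 3 largest PCR percentages, family members, adjacent members, genes nearest the thresholds and up to 3 relatives a family; further members are named to describe their groups. Promoter motifs and sequences were not analysed here.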

Additional observations from a re-analysis of the deposited data

Results flagged for a closer look

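Only relatives, markers and a neighbour named for the families and lists above were screened, not all genes. A closer look is given to those that were on 1 side of 0 on both slides of 1 regime and on the other side on both slides of another; the differences between regimes were not tested. AT1G29670, a GDSL lipase beside the member AT1G29660, had a log2 ratio (early over 90%-late) of 0.983 without amplification, 1.775 with IVT, 0.527 with 2IVT and −1.33 with PCR. TBL26 had 1.679, 1.695, 1.345 and −0.266 in the same order. The subtilase SBT4.13 had the signs reversed, with −1.18, −1.985, −1.576 and 0.169. The endosperm gene AGL62 had 0.287, 1.168, 0.85 and −0.215. The seed coat gene BAN had 0.337, 1.453, −0.07 and 0.187. The negative values of TBL26 (PCR), AGL62 (PCR) and BAN (2IVT) were not told apart from 0 (limma adjusted p = 0.0864, 0.206 and 0.615). Nor was the positive PCR value of SBT4.13 (limma adjusted p = 0.305). LHB1B2, of the light-harvesting complex, had 0.327, 0.496, −0.14 and −0.244. Its unamplified and IVT values were called higher (limma adjusted p = 0.0463 and 0.00459). Its 2IVT and PCR values were not told apart from 0 (limma adjusted p = 0.371 and 0.143). The DUF642 gene AT1G29980 had 0.215, 0.028, −0.091 and 0.159, none of them told apart from 0 (limma adjusted p from 0.126 to 0.845).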

How the results depend on the processing

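The number of members was 30 with 2-fold asked of PCR too, 58 with the thresholds asked of each slide, 79 with each slide centred on its median, and 201 when probes without a gene symbol were counted. It ranged from 91 to 102 when 1 slide was left out, with 82 to 93 of the 94 genes shared. Family counts moved by over 1.5 times in 19 comparisons of a family with a setting and stayed within that in 80. The 7 GDSL lipases became 1 with 2-fold asked of PCR and 4 with each slide asked. The 2 glycosyl hydrolase 9 members became 0 with each slide asked, and 1 with median centring, without unamplified slide 2 or without 2IVT slide 2. PUB25 was lost in the first 3 settings and without unamplified slide 2 or PCR slide 1. With 1 slide left out, the lowest and highest counts of called probes were 3549 and 6783 higher and 2772 and 4520 lower without amplification, 4985 and 8085 higher and 3753 and 5684 lower with IVT, 4329 and 5916 higher and 3502 and 4677 lower with 2IVT, and 1904 and 4325 higher and 1794 and 3887 lower with PCR, where the lone slide of a regime was assumed to vary like the others. Counts higher and lower in the order unamplified, IVT, 2IVT and PCR were 6515 and 4416, 8952 and 6291, 4290 and 3542, and 3909 and 3367 in a separate fit per regime, and 5170 and 4924, 6575 and 6311, 5321 and 5067, and 3583 and 3578 with median centring. The slide numbers did not pair the slides (r of their differences −0.0605 to 0.0338), and with the replicate block the counts higher and lower were 6030 and 4098 without amplification, 7504 and 5291 with IVT, 5710 and 4516 with 2IVT, and 3525 and 3210 with PCR, each within 1.5 times the count without it. With 2 slides per regime from 1 pair of RNA samples, none of these settings bears on differences between plants.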
